A study of Mus musculus with 22 samples.

Results

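The genes described here are 9 interferon-induced and MHC class I genes of the mouse, taken by symbol from a table of 23453 genes: Stat2, Irf7, Ifit1, Ifit3, Isg15, Ifi204, H2-K1, H2-D1 and B2m. All 9 had reads, and all 9 were among the 12719 genes that passed the filter for comparisons, which asks for reads in at least 5 cells. They were measured in 22 single astrocytes from cultures of the cerebral cortex of C57BL/6 pups of postnatal day 0 to 1, each picked with a glass pipette after its calcium response to EtOH had been imaged. The 6 S-type cells had a slow rise and slow decay of calcium, the 6 T-type cells a transient rise, the 5 M-type cells a mixed waveform, and the 5 NR cells were nonresponsive. No genotype was altered, and NR cells were exposed to EtOH like the responding cells, so that no cell without EtOH is included. All cultures had been treated with cytosine arabinoside for 12 h against other cell types such as microglia, and had been without serum for 24 h at imaging. No label names the pup or culture of a cell, so a response type counts as 1 sample here and the types are compared without a test. Cells are named by type and a number that carries no order.

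Interferons signal through receptors that activate JAK kinases, which phosphorylate STAT proteins. Type I interferon gives a complex with STAT2 and IRF9 that binds the interferon-stimulated response element in the promoters of target genes such as the Ifit genes and Isg15, and IRF7 amplifies the response by driving further interferon transcription. MHC class I molecules, made of a heavy chain and the light chain beta-2 microglobulin, show peptides to CD8 T cells and are also raised by interferons. Astrocytes respond to interferons and can present on MHC class I, which is otherwise low in the resting brain.

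The response element was looked for in RefSeq promoter windows (GRCm38.p6) of 300 bases, from 250 before to 50 after each start, searching the letters GAAANNGAAA on both strands. Windows were at hand for 8 of the 9 genes. Of these genes, 5 held the letters. Over all genes the letters were in 3.44% of 32851 windows, a share of windows and not of genes, since a gene can have several. The genes were chosen as interferon-induced and the element serves such genes, so the count is no result independent of the choice. The matching bases are shown in capitals, with each sequence read in the direction of its gene. TTTCNNTTTC is the same motif on the other strand.

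Ifit1 (chr19:34640760-34640838, plus strand): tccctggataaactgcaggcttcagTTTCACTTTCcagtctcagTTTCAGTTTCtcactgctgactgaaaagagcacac
Ifit3 (chr19:34583348-34583441, plus strand): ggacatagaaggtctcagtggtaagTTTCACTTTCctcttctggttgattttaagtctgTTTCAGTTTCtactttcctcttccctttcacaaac
Isg15 (chr4:156200850-156200921, minus strand): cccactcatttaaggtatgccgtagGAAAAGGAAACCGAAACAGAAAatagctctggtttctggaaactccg
Stat2 (chr10:128270251-128270310, plus strand): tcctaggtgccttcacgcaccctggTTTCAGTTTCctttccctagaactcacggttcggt
B2m (chr2:122147523-122147582, plus strand): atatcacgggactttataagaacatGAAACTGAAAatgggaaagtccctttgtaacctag

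Ifit1 and Ifit3 each held 2 separate matches, Isg15 held 3 matches that overlap one another, and Stat2 and B2m held 1 each. For Stat2 alone, the bases after the start were not found in a GENCODE transcript of the gene. Its window ends at 128270547, before the GENCODE start of Stat2 at 128270559. The letters were not in the windows of Irf7, H2-K1 and H2-D1, which says only that these letters are not there. A match is a run of letters, and binding was not measured.

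By the GENCODE vM21 annotation of GRCm38, the build of the alignment, Ifit3 (chr19:34583531-34588731) and Ifit1 (chr19:34640871-34650009) lie close together on chromosome 19, and H2-K1 (chr17:33996017-34000347) and H2-D1 (chr17:35262730-35267499) both lie on chromosome 17. Stat2 is at chr10:128270559-128292849, Irf7 at chr7:141262706-141266481, Isg15 at chr4:156199424-156200818, Ifi204 at chr1:173747293-173766943 and B2m at chr2:122147686-122153083. Reads were kept only where they aligned to 1 place, so a read pair wholly within a stretch shared with another gene can go uncounted. A read there can still count when the other read of its pair lies outside the stretch. The shares that follow are therefore of sequence and not of reads lost. Of the windows of 75 bases, the read length, in the transcripts of Ifit3, 41.1% occur also in another gene, mostly Ifit3b, which is not analysed here. The share was 13.2% for Ifi204, mostly with Ifi211, 5.56% for H2-D1, 5.19% for Ifit1 and 3.10% for H2-K1, and at most 0.113% for the other 4 genes. The exons of Irf7 overlap those of Phrf1 on the opposite strand, and because it is not stated whether counting used the strand, reads of the 2 genes cannot be told apart there.

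A cell held between 2937786 and 22131076 reads over all genes. Counts were divided by size factors from the 3670 genes read in every cell, and these ran from 0.183 to 2.31. T-type cells 2 and 3 had the lowest factors, 0.276 and 0.183, and T-type cell 2 also had the fewest genes with a read, 6319 against up to 13070, so that 1 read weighs most in these libraries. Below, a normalized count is a count divided by the size factor of its cell, and a level is the mean normalized count over the cells of a type. Intervals are 95% intervals that cover counting error only, since reads of an amplified library cannot be traced to single molecules here. Of 15 astrocyte markers, led by Vim, Slc1a3, Id3 and Aqp4, 13 to 15 had reads in every cell, summing to 6068 to 21521 CPM, which are counts scaled by the library total. Against NR, 4 were at least 2-fold higher and 5 lower in T-type, 1 and 6 in S-type and 1 and 7 in M-type, and T-type over S-type had 2 and 4. In the same order, the shares of all genes compared were 28.4% and 32.8%, 25.1% and 22.5%, 19.8% and 28.1%, and 25.7% and 32.5%.

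The 9 genes fell into those read in nearly every cell and those read in some cells only. B2m and H2-D1 had reads in all 22 cells and H2-K1 in 21, Ifit3 in 19, Stat2 in 16, Ifi204 in 13, Ifit1 and Isg15 in 11, and Irf7 in 10. Per transcript length, the mean over the cells was 502 RPKM for B2m, a unit that scales reads for exon length and library total, 12.2 RPKM for H2-D1 and 11.3 RPKM for H2-K1. Among the interferon response genes it was 21.1 RPKM for Ifi204, 15.6 for Ifit3, 4.6 for Isg15, 1.22 for Stat2, 1.16 for Ifit1 and 0.784 for Irf7. The exon length joins all annotated exons of a gene. For Irf7 these form 1 block of 3776 bases over the whole gene, so its place behind Stat2 and Ifit1 may depend on this length. The median over cells gave another order, with Ifi204 at 0.0211 RPKM and Irf7 at 0, because few cells carried their reads. The heatmap of the 9 genes by cell shows the MHC class I genes as filled bands and the interferon response genes as scattered cells.

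**Figure D1:**
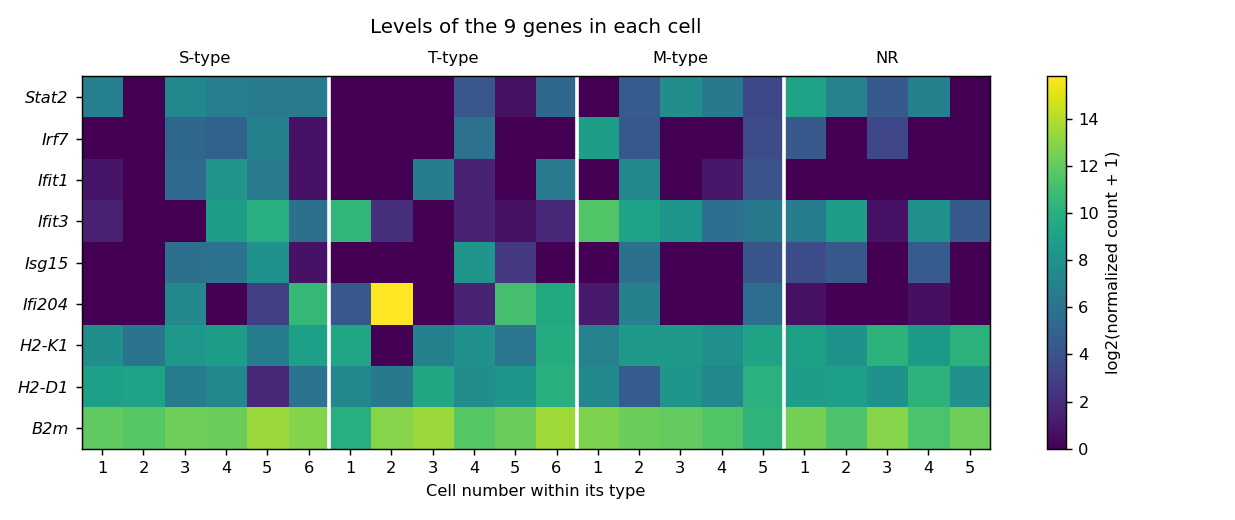
Heatmap of log2(normalized count + 1) for the 9 genes (vertical axis) in the 22 cells (horizontal axis, numbered within type, white lines between types), with color from 0 upward on a log2 scale. B2m is high in all 22 cells, whereas the brightest single field is Ifi204 in T-type cell 2, at 56800 normalized counts.

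Of the factors that carry the signal, Stat2, a subunit of the type I interferon complex, was read in 5 of 6 S-type, 3 of 6 T-type, 4 of 5 M-type and 4 of 5 NR cells. The S-type cells ran from 0 to 167 normalized counts of Stat2 with a median of 101, and only S-type cell 2 had no read. T-type cells ran from 0 to 38.4 with a median of 0.324, cells 1, 2 and 3 having no read. The M-type cells 1 to 5 had 0, 23.1, 223, 83.5 and 9.94 normalized counts of Stat2, and the NR cells 1 to 5 had 538, 129, 20.9, 121 and 0. Thus 5 of 6 S-type cells lay above the highest T-type cell, yet the ranges of all types overlapped through the cells without a read. Summed over a type, the reads were 767 in S-type (714 to 823), 71 in T-type (55.5 to 89.6), 692 in M-type (641 to 746) and 1345 in NR (1274 to 1419), of which NR cell 1 held 886.

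Irf7, the transcription factor that feeds back on interferon production, had reads in 10 cells. In S-type, cells 3, 4 and 5 had 39, 28.9 and 123 normalized counts of Irf7 and the other 3 had at most 0.742. In T-type the 33 reads all came from cell 4, at 60.2 normalized counts. The M-type cells 1 to 5 had 462, 19.6, 0, 0 and 11.2, and the NR cells 20.6, 0, 9.35, 0 and 0. M-type cell 1 alone held 93.7% of the M-type level of Irf7. All 4 types contained cells with no read of Irf7, so no 2 types were apart.

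Ifit1, an antiviral protein that binds foreign RNA, had no read in any NR cell and reads in cells of every responding type. A count of 0 over the NR cells allows a level of up to 0.397 normalized counts, which is 3 reads divided by the summed size factors. S-type cells 3, 4 and 5 had 41.4, 298 and 84.7 normalized counts of Ifit1, and the other 3 had at most 0.888. T-type cells 3 and 6 had 98.2 and 85.2, from 18 and 133 reads, and the other 4 had at most 1.82. M-type cells 2 and 5 had 154.7 and 15.6 and the other 3 had at most 1.04. Because each responding type also held cells without a read of Ifit1, the ranges overlapped with NR at 0. With at least 5 reads asked for, 2 M-type, 2 T-type and 3 S-type cells remained, and with every cell thinned to the 2937786 reads of the smallest library, 8.08 of the 22 cells would be expected to show a read in place of 11.

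Ifit3, a binding partner of the Ifit1 protein, was read in all 5 M-type and all 5 NR cells. The M-type cells 1 to 5 had 2879, 548, 313, 53.4 and 81.2 normalized counts of Ifit3, and the NR cells had 96.5, 471, 0.719, 257 and 21.3. S-type cells ran from 0 to 966 with a median of 29.1. T-type cells ran from 0 to 1430 with a median of 2.19, and T-type cell 1 held 99.4% of the type's level, the other 5 having at most 3.63. The M-type cells were therefore the type in which no cell was under 53.4, while S-type, T-type and NR each had cells near 0.

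Isg15, a ubiquitin-like protein that is attached to other proteins after interferon, had 909 reads in 11 cells. In S-type, cells 3, 4 and 5 had 54.8, 63.1 and 280 normalized counts of Isg15 and the other 3 had at most 0.742. In T-type, cell 4 had 301, cell 5 had 5.18 and the other 4 had no read, so that cell 4 held 98.3% of the level. The M-type cells 1 to 5 had 0, 56, 0, 0 and 17.7, and the NR cells had 12.1, 20.4, 0, 23.3 and 0. Cells with and without Isg15 thus occurred side by side in all 4 types. The share of cells with a level of at least 10 was 3 of 6 in S-type, 1 of 6 in T-type, 2 of 5 in M-type and 3 of 5 in NR.

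Ifi204, a member of the p200 family whose proteins sense DNA, had the widest range of the 9 genes. Its T-type cells 1 to 6 had 18.3, 56800, 0, 1.82, 2283 and 768 normalized counts. The S-type cells had 0, 0, 172.4, 0, 7.06 and 1443, the M-type cells 1.25, 118, 0, 0 and 51, and the NR cells 0.607, 0, 0, 0.598 and 0. NR thus held 2 reads of Ifi204 in 5 cells (0.242 to 7.22), against 20398 reads in T-type, 2236 in S-type and 289 in M-type. T-type cell 2 alone, with 15662 reads, held 94.9% of the T-type level and 92.1% of the sum over all cells, in the library with the second lowest size factor. On the scale of the library total it had 1247 CPM, against 182.7 CPM in T-type cell 5, 120 CPM in S-type cell 6 and 67.2 CPM in T-type cell 6, and it stayed the highest cell. The median of the T-type cells, 393 normalized counts, was above that of S-type at 3.53, M-type at 1.25 and NR at 0, but each type had at least 1 cell without a read.

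**Figure D2:**
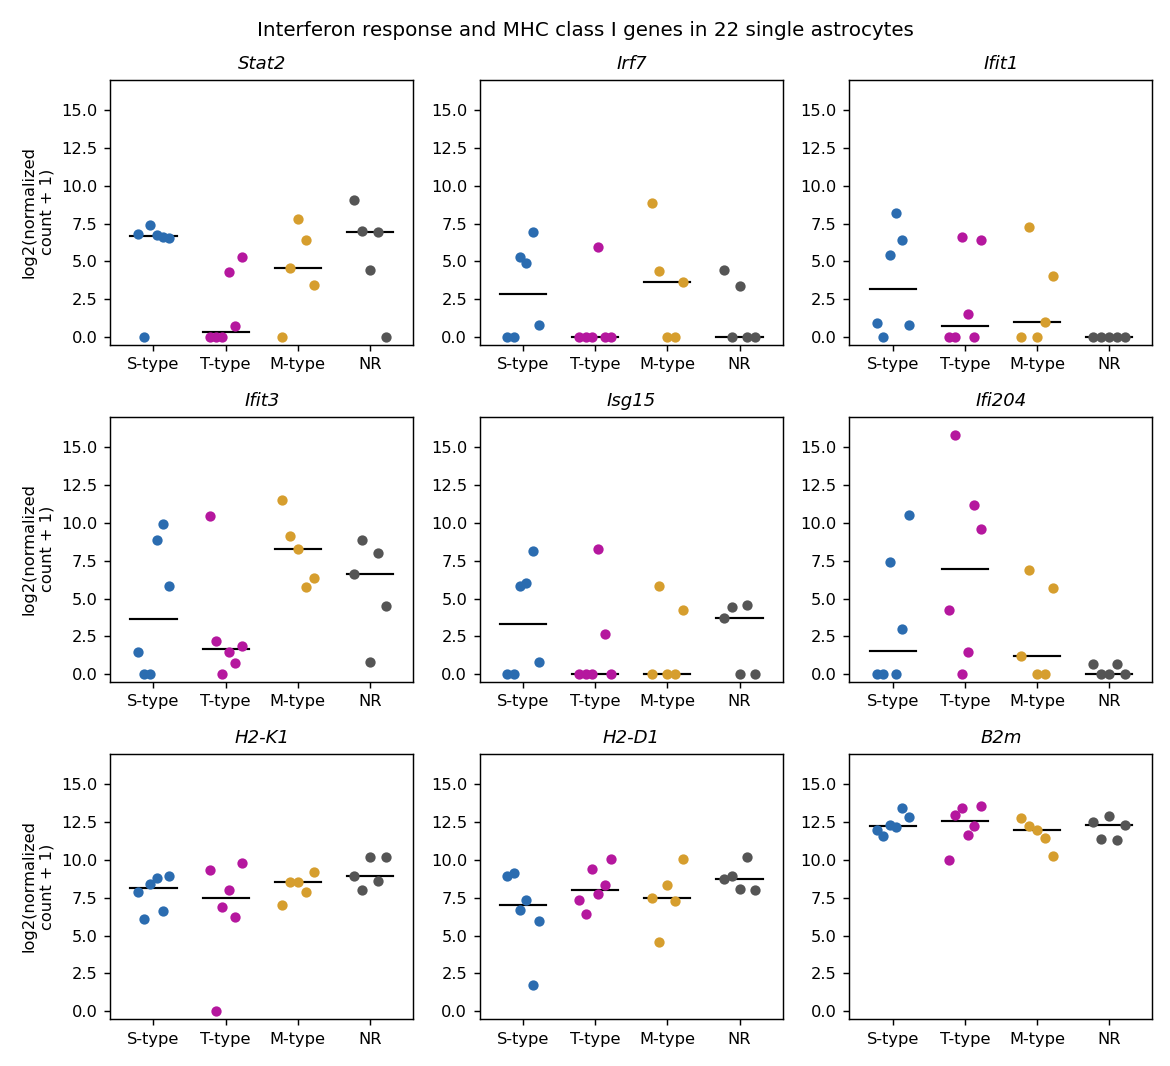
Dot plots of log2(normalized count + 1) for each of the 9 genes, with 1 dot per cell, types along the horizontal axis and black lines at the median of a type. The NR cells lie at or near 0 for Ifit1 and Ifi204, and the cells of the types overlap for every gene.

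H2-K1 and H2-D1, the classical heavy chains of the H2-b haplotype that C57BL/6 carries, had their highest levels in NR cells, also by mean CPM and with TMM factors. For H2-D1, however, the T-type level was above that of NR once NR cell 4 was left out. The NR cells 1 to 5 had 492, 261, 1180, 395 and 1146 normalized counts of H2-K1, and the M-type cells had 129, 371, 368, 240 and 600. S-type cells ran from 67.2 to 492 with a median of 285, and T-type cells from 0 to 879 with a median of 189. Only T-type cell 2, the cell with the most Ifi204, had no read of H2-K1, and all other cells had at least 67.2. The cells of the types overlapped, since the 2 highest NR cells, 3 and 5, lay above every other cell and the other 3 lay inside the range of the rest.

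For H2-D1 the NR cells had 435, 483, 273, 1169 and 252 normalized counts and the M-type cells 180, 23.1, 319, 155.6 and 1066. S-type cells ran from 2.35 to 570 with a median of 134, and T-type cells from 83.4 to 1054 with a median of 266. The lowest cell, S-type cell 5 with 3 reads of H2-D1, had the highest B2m of its type. B2m, the light chain, had the narrowest range in proportion, from 1019 to 12120 normalized counts over the 22 cells. Its medians were 5050 in NR, 4110 in M-type, 6388 in T-type and 4842 in S-type, and these differ by less than the range within any type.

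The question put by the design is how each responding type differs from NR, and T-type from S-type. Levels were compared as log2 ratios, and a gene was counted when the ratio passed 2-fold. A level of 0 was replaced by 3 reads over the type, so that a ratio against it is a lower bound. The 3 comparisons with NR share the same 5 NR cells, and their values are therefore set side by side.

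Against NR, T-type had higher Ifi204, Ifit1 and Isg15 and lower Stat2 and H2-K1, which is 3 of the 9 genes at least 2-fold higher and 2 lower. Among all 12508 genes compared, 28.4% were at least 2-fold higher in T-type and 32.8% lower, so the shares of the 9 genes were near the background. The log2 ratio was 15.3 for Ifi204 (13.5 to 18.4), at least 6.28 for Ifit1, which is at least 77.7-fold higher, with the bound at 5.45 without T-type cell 3, and 2.19 for Isg15 (1.82 to 2.57), which was -0.74 from the mean of log2(normalized count + 1). It was -4.08 for Stat2 (-4.49 to -3.70) and -1.08 for H2-K1 (-1.16 to -0.99), the latter -0.94 by pooled CPM and -0.80 without NR cell 3. Ifit3, Irf7, H2-D1 and B2m were within 2-fold, at 0.50, 0.74, -0.32 and 0.49. H2-D1 came to 0.21 without NR cell 4. Irf7, whose T-type reads all came from cell 4, was -3.10 without that cell and -0.25 by pooled CPM. With T-type cell 4 left out the ratio of Isg15 was -3.43, and with T-type cell 1 left out that of Ifit3 was -6.61, whereas Ifi204 kept 11.3 without T-type cell 2 and Stat2 ran from -5.42 to -2.83 over all cells left out. Scaled by mean CPM, 19.2% of all genes were higher and 38.2% lower and the median of all genes moved from -0.07 to -0.46, with the ratio of Ifit3 at -0.52.

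Against NR, S-type had 4 genes at least 2-fold higher, Ifi204, Ifit1, Isg15 and Irf7, and 2 lower, H2-K1 and H2-D1, where 25.1% of the 12621 genes compared were higher and 22.5% lower. The log2 ratio was 10.1 for Ifi204 (8.28 to 13.2), at least 7.48 for Ifit1, which is at least 179-fold higher, 2.57 for Isg15 (2.25 to 2.90) and 2.41 for Irf7 (1.96 to 2.90). It was -1.32 for H2-K1 (-1.40 to -1.25) and -1.18 for H2-D1 (-1.26 to -1.09). With any 1 cell left out, Isg15 stayed between 1.09 and 3.03, Irf7 between 1.19 and 3.77 and H2-K1 between -1.56 and -1.04, while H2-D1 came to -0.64 without NR cell 4. Ifi204 came to 7.22 without S-type cell 6, and the bound of Ifit1 to 6.01 without S-type cell 4.

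M-type had 4 genes at least 2-fold higher than NR, Ifi204, Ifit1, Ifit3 and Irf7, and 2 lower, Stat2 and H2-K1, beside 19.8% and 28.1% of the 12616 genes compared. The log2 ratio was 7.14 for Ifi204 (5.28 to 10.2), at least 6.43 for Ifit1, which is at least 86.3-fold higher, 2.19 for Ifit3 (2.11 to 2.28) and 4.04 for Irf7 (3.61 to 4.50). It was -1.25 for Stat2 (-1.39 to -1.12) and -1.02 for H2-K1 (-1.09 to -0.96), the latter just past 2-fold and at -0.81 by mean CPM and -0.75 without NR cell 3. Without M-type cell 1 the ratio of Irf7 was 0.36 and that of Ifit3 0.56, and without NR cell 1 that of Stat2 was 0.002. Without M-type cell 2, which held 90.3% of the M-type level of Ifit1, the bound of Ifit1 was 3.38 and the ratio of Ifi204 was 5.76.

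T-type and S-type, the transient and the slow waveform, differed at least 2-fold in 4 of the 9 genes. Ifi204 was higher in T-type, and Stat2, Irf7 and Ifit1 were lower, where 25.7% of the 12517 genes compared were higher in T-type and 32.5% lower. The log2 ratio of T-type over S-type was 5.21 for Ifi204 (5.14 to 5.27), -3.32 for Stat2 (-3.74 to -2.93), -1.67 for Irf7 (-2.24 to -1.14) and -1.20 for Ifit1 (-1.62 to -0.81). The range with any 1 cell left out was -4.66 to -3.06 for Stat2 and 1.18 to 8.12 for Ifi204, the lower end being without T-type cell 2. Irf7 came to -0.45 without S-type cell 5, and Ifit1 to 0.27 without S-type cell 4. By mean CPM, 16.6% of all genes were higher and 38.1% lower, with a median of all genes of -0.46 in place of -0.09.

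The cells of the 2 types overlapped for all 9 genes in every comparison. They did not overlap for 1.01% of all genes compared between T-type and NR, 0.412% between S-type and NR, 0.602% between M-type and NR and 0.783% between T-type and S-type, so 0 of 9 is near the background. The median log2 ratio of the 9 was 0.50 for T-type, 0.56 for S-type and 0.40 for M-type over NR and -0.05 for T-type over S-type, beside -0.07, 0.03, -0.20 and -0.09 over all genes. From the mean of log2 values, which weighs cells near 0 more, those medians were -0.58, 0.30, -0.34 and -1.20, beside -0.97, 0.13, -0.04 and -1.12 over all genes. The sign of the median in T-type and in M-type over NR thus depends on how a level is formed, and in T-type the median of all genes shifts with it.

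**Figure D3:**
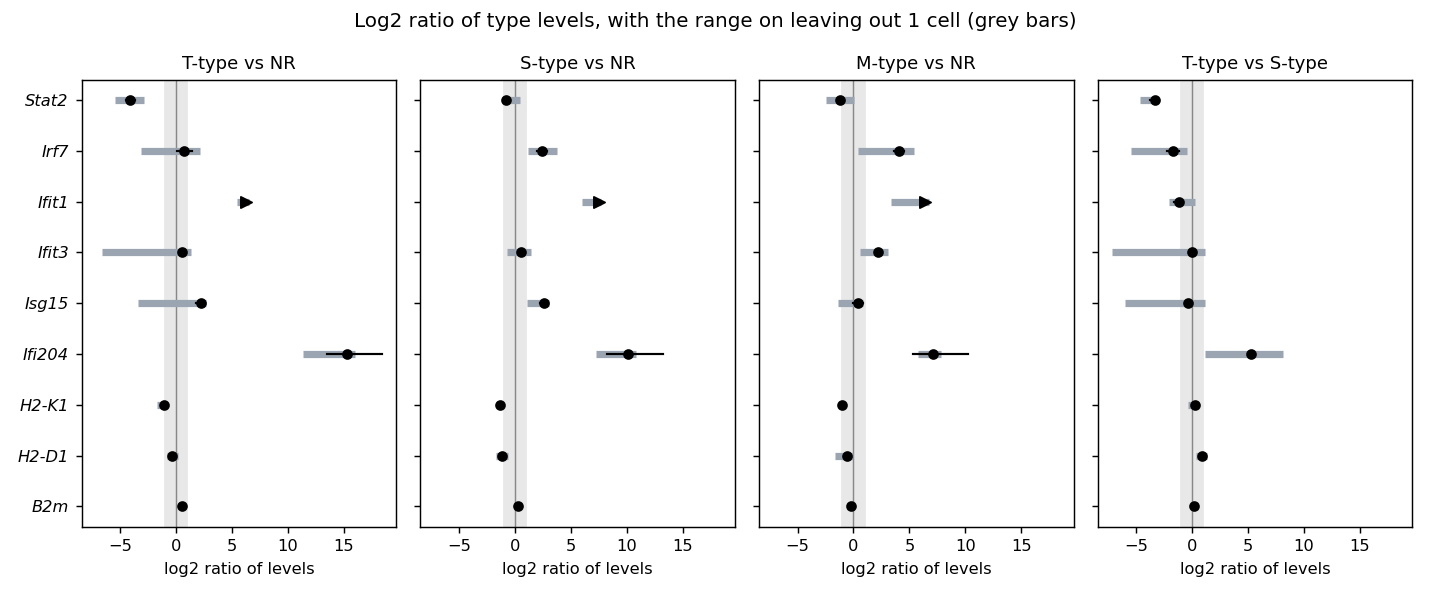
Log2 ratio of type levels for each gene in the 4 comparisons, with black lines for the 95% interval of counting error, grey bars for the range on leaving out 1 cell, triangles for lower bounds and a grey band for less than 2-fold. Ifi204 and Ifit1 lie to the right of the band against NR with every cell left out in turn, while the bars of Ifit3 and Isg15 in T-type reach far to the left.

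Reads of microglia markers were present in some NR cells, and interferon response genes were read in those same cells. All 20 microglia markers had reads somewhere, with Laptm5, Mpeg1 and Ctss among the most read. Summed over all 20, they ran from 4.98 to 483 CPM in NR, from 7.25 to 83.7 CPM in M-type, from 9.8 to 142 CPM in T-type and from 0.561 to 213 CPM in S-type. Of 17 markers compared with NR, 0 were at least 2-fold higher and 11 lower in T-type, 0 and 16 in S-type and 1 and 16 in M-type, and T-type over S-type had 15 higher and 0 lower. Of all genes, 32.8%, 22.5% and 28.1% were lower than NR in T-, S- and M-type. In T-type over S-type 25.7% were higher. A sum over 19 of the markers came to 106, 133 and 264 CPM in NR cells 1, 2 and 4 and 3.45 and 0.849 CPM in NR cells 3 and 5. These sums ran from 0 to 9.84 CPM in S-type, from 0.69 to 6.41 CPM in M-type and from 0 to 142 CPM in T-type, where cell 4 was the highest. Cx3cr1, the fractalkine receptor that marks microglia, had 136, 382 and 294 reads in NR cells 1, 2 and 4 and none in NR cells 3 and 5, and in S-, M- and T-type it had at most 29 reads in a cell. P2ry12, a defining marker of resting microglia, was at 0 in all 5 NR cells and had 2 reads in T-type cell 1.

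All 95 NR reads of Isg15, 97.8% of those of Stat2, 98.3% of those of Ifit3 and 84.4% of those of H2-D1 came from NR cells 1, 2 and 4. For H2-K1 the share was 40.2% and for B2m 53.6%. Levels of Isg15, Ifit3 and Stat2 were higher in each of these 3 NR cells than in the other 2, and those of H2-K1 were lower. T-type cell 4, the only T-type cell with over 5.18 normalized counts of Isg15 and the only one with Irf7, also had the highest summed microglia markers of its type, with 428 reads of Mpeg1 but no read of Cx3cr1. T-type cell 1, with no read of Isg15, Irf7 or Stat2, had reads of 19 of the 20 markers, against 12 in T-type cell 4, at a lower sum of 36.4 CPM. In S-type cells 3, 4 and 5, where Isg15, Irf7 and Ifit1 were high, Cx3cr1, Csf1r, Tyrobp, Aif1, C1qa and Ptprc were at 0, while the 19 markers summed to 9.84 CPM in cell 3. The part of these markers in the results was not tested.

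With the 4 cells above 100 CPM of these markers left out, an alternative chosen after the values were seen, NR kept 2 cells and no read of Ifi204, Ifit1 or Isg15. The genes at least 2-fold apart from NR were then 5 in T-type, 7 in S-type and 7 in M-type. Of all genes, 40.0% were then higher and 30.2% lower in T-type, 42.0% and 21.1% in S-type and 36.8% and 25.4% in M-type, and the median of all genes moved to 0.37, 0.56 and 0.27. Stat2 came to 2.70 in M-type and 3.19 in S-type over NR, in place of -1.25 and -0.76, and to -0.42 in T-type, in place of -4.08. Ifit3 came to 4.70 in T-type, 4.50 in S-type and 6.14 in M-type. Isg15 in S-type was at least 5.77, which is at least 54.7-fold higher, and H2-K1 was at -1.76, -2.06 and -1.77 in T-type, S-type and M-type. H2-D1, lower than NR in all 3 types with every cell, came to 0.80 in T-type, -0.18 in S-type and 0.41 in M-type. Stat2 in T-type over S-type, which uses no NR cell, was -3.61.

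**Figure D4:**
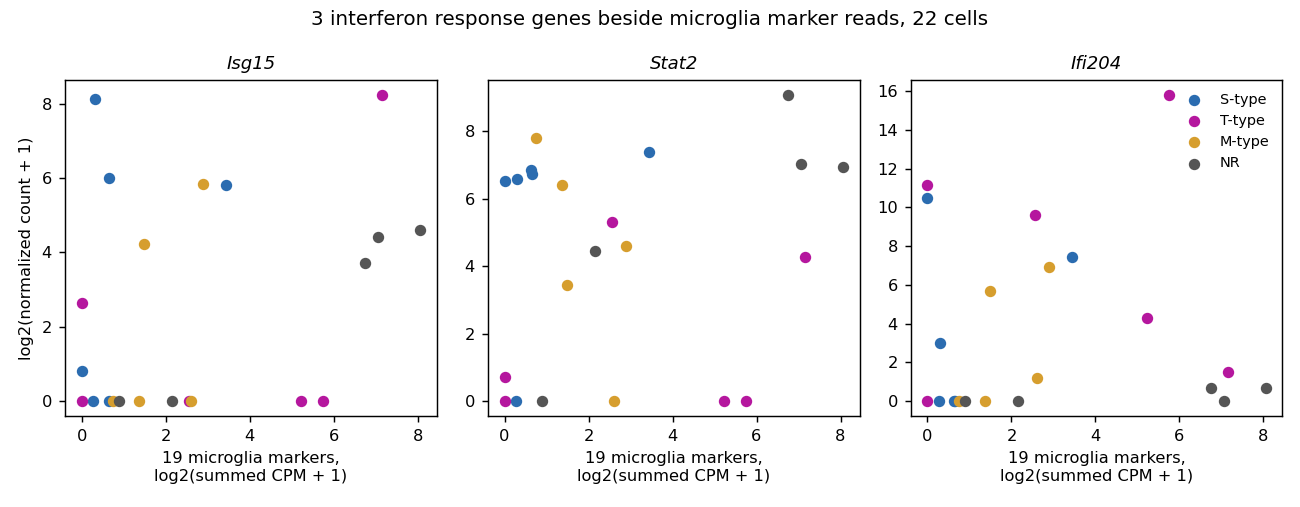
Isg15, Stat2 and Ifi204 as log2(normalized count + 1) against 19 summed microglia markers as log2(CPM + 1), with 1 point per cell colored by type. The 3 NR cells at the right, with 106 to 264 CPM of markers, are the NR cells with Isg15, and the 3 S-type cells with the most Isg15 have under 10 CPM of markers.

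Reads of other cell types were compared in the same way, beside the shares of all genes given above for each comparison. The 12 endothelial markers, led by Kdr, Flt1, Esam and Pecam1, had 9 members with a read and at most 200 CPM in a cell. Of 3 compared, 2 were higher and 1 lower in T-type than in NR, 1 and 0 in S-type and 1 and 2 in M-type, and T-type over S-type had 2 and 1. The 10 oligodendrocyte lineage markers, with Olig1, Olig2 and Cnp among the most read, summed to 2.25 to 3329 CPM. Of 5 compared, 2 were higher and 1 lower in T-type than in NR, 2 and 1 in S-type and 3 and 2 in M-type, and T-type over S-type had 2 and 1. The 12 neuron markers, led by Stmn2, Map2, Tubb3 and Elavl3, summed to 38.1 to 2076 CPM. Of 7 compared with NR, 2 were higher and 3 lower in T-type, 1 and 4 in S-type and 0 and 4 in M-type, and 4 of 6 were higher and 1 lower in T-type than in S-type. Of the 12 mural and fibroblast markers, Acta2 and Tagln had most reads, before Col1a2 and Pdgfrb, and the sum ran from 36.4 to 9477 CPM. Of 8 compared between T-type and NR, 1 was higher and 4 lower, of 9 in S-type 5 and 2 and in M-type 3 and 4, and of 8 in T-type over S-type 1 and 4. Their part in the results was not tested.

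Ifit1, Isg15 and Irf7 were compared cell by cell. All 3 were at or above 10 normalized counts in 5 cells, S-type cells 3, 4 and 5 and M-type cells 2 and 5, and in no T-type and no NR cell. At least 1 of the 3 reached that level in 12 cells, 3 in each type. This trio was chosen after its values were seen and has no test. Over the 22 cells, which share a protocol but differ in depth, Isg15 and Irf7 had a Spearman correlation of log2(normalized count + 1) of 0.61 and a Pearson correlation of 0.59, the highest Spearman value of the 36 pairs of the 9 genes, which ran from -0.44 to 0.61 with a median of 0.09. Ifit1 had 0.43 with Isg15 and 0.37 with Irf7. H2-D1 had the lowest values, -0.44 with Irf7 and -0.35 with Ifi204.

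The genes most like each of the 9 across the 22 cells were found by Spearman correlation among 11550 genes with a mean level of at least 10. For Ifit1 the first was Xaf1, an interferon-stimulated gene, at 0.75, followed by Mat2a at 0.72. For Isg15 the first were Ttc38 at 0.82 and C330013E15Rik at 0.80, for Irf7 Dmtf1 at 0.77 and 1110008J03Rik at 0.76, and for Stat2 Dnahc7b at 0.85 and Fbxl12 at 0.83. Ifit3 went with Ttc21b at 0.77 and Rgs8 at 0.76, and Ifi204 with Gm5918 at 0.74 and Rps18 at 0.70. For H2-K1 they were Gltscr1l at 0.81 and Ripk1 at 0.79, for H2-D1 Evl at 0.71 and Slc43a3 at 0.68, and for B2m Lman2 at 0.70 and Polr2d at 0.69. These are the largest of many values over few cells and are given as a description. Among 92 genes of the interferon lists, the summed level of Ifit1, Ifit3, Isg15 and Irf7 was most like Ifih1 at 0.69 and Ddx58 at 0.59, the cytosolic sensors of viral RNA, followed by Tnfaip3, H2-T10 and Nlrc5 at 0.47, 0.45 and 0.43. The summed genes were unequal, with a mean normalized count over the 22 cells of 348 for Ifit3, 35.6 for Ifit1, 37.9 for Isg15 and 35.2 for Irf7. Ifit1 and Ifit3 had a Spearman correlation of -0.055 with each other.

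The other genes of the pathway show what lies around the 9. Their counts stand beside the shares of all genes compared. Against NR, 28.4% of all genes were at least 2-fold higher and 32.8% lower in T-type, and 25.1% and 22.5% in S-type. In M-type these shares were 19.8% and 28.1%, and in T-type over S-type 25.7% and 32.5%. Interferon itself was almost not read: of 18 ligand genes in the table, Ifnk had 2 reads and Ifnab 1 read over all cells, and the other 16 had none. Receptors and JAK kinases were read widely, and 8 were compared, led by Jak1, Ifnar2, Jak2 and Ifngr2. Of these, 2 were at least 2-fold higher and 3 lower in T-type than in NR, 1 and 2 in S-type, and 0 and 2 in M-type, and 3 were higher and 3 lower in T-type than in S-type. Jak2, the kinase of the interferon gamma receptor, had levels of 832 in NR, 317 in M-type, 139 in T-type and 1014 in S-type.

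Of 11 STAT and IRF factors, which include Stat2 and Irf7, 3 were higher and 6 lower in T-type than in NR, with a median log2 ratio of -1.28. In S-type 3 were higher and 1 lower, in M-type 1 and 6, and in T-type over S-type 3 and 6 with a median of -1.06. By the mean of log2 values the medians of T-type were -1.26 over NR and -1.06 over S-type. Those of all genes were then -0.97 and -1.12. Without the microglia marker cells, the medians over NR became 0.47, 2.39 and 1.32. Irf9, the DNA-binding part of the interferon-activated complex, had levels of 281 in S-type and 882 in T-type, and its log2 ratio of T-type over S-type was 1.65, on the other side of 0 from that of Stat2 at -3.32. Irf2, a repressor of interferon responses, stood at 774 in T-type and 190 in S-type, with a log2 ratio of 2.03 that came to 0.14 without T-type cell 3, and Irf2bp2 at 150.7 and 442.

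Sensors of foreign nucleic acid and their adaptors had 10 genes compared, of which 2 were higher and 7 lower in T-type than in NR, with a median of -2.39. In S-type the counts were 0 and 3, in M-type 1 and 3, and in T-type over S-type 3 and 4. Medians of T-type by the mean of log2 values were -1.59 over NR and -1.17 over S-type, beside -0.97 and -1.12 over all genes. Tbk1, the kinase that activates interferon regulatory factors, had levels of 649 in NR, 344 in M-type, 86.9 in T-type and 927 in S-type. Mavs, the adaptor of the RNA sensors, had 233 in NR, 75.2 in M-type, 35.4 in T-type and 173.2 in S-type. Tlr3, an endosomal sensor of double-stranded RNA, had 1103 in NR, 639 in M-type, 521 in T-type and 793 in S-type. Ddx58 was at 1279 in T-type against 334 in NR, and the log2 ratio of 1.94 came to -0.82 without T-type cell 3.

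Among 37 antiviral interferon-stimulated genes compared, which include Ifit1, Ifit3 and Isg15, S-type had 18 at least 2-fold higher than NR and 5 lower, with a median of 0.99. That is 18 of 37 beside the 25.1% and 22.5% of all genes in the same comparison. This S-type median was 0.755 by mean CPM and 0.46 by the mean of log2 values, beside 0.02 and 0.13 over all genes. With any 1 cell left out the median of S-type over NR stayed between 0.71 and 1.35, and with the microglia marker cells left out 21 of 36 were higher and 3 lower, beside 42.0% and 21.1% of all genes. In M-type 11 were higher and 17 lower, with a median of -0.75, which came to 0.37 without the microglia marker cells. In T-type 14 were higher and 13 lower than in NR, with a median of 0.23 that was -0.15 by mean CPM. T-type over S-type had 6 higher and 20 lower, with a median of -1.06 that ran from -1.17 to -0.39 with 1 cell left out. With the mean of log2 values this median was -1.32, beside -1.12 over all genes. The most read were Ifi27l1, Ifit2, Eif2ak2 and Adar. Eif2ak2, the kinase PKR that stops translation in infected cells, had levels of 491 in NR, 213 in M-type, 2605 in T-type and 1222 in S-type, where the log2 ratio of T-type over NR of 2.41 came to 0.58 without T-type cell 2. Adar, which edits double-stranded RNA, had 457 in NR, 152 in M-type, 231 in T-type and 908 in S-type, where the ratio of T-type over S-type of -1.97 came to -0.71 without S-type cell 2 and that of M-type over NR of -1.59 to -0.51 without NR cell 4.

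Apart from Ifi204, the p200 family was little read. The list had 8 genes with a read and 2 that were compared, Ifi204 and Mnda, which lay on opposite sides of NR in each responding type. Mnda had levels of 85.9 in NR and 3.26 to 5.45 in the other types, and its log2 ratio of -3.98 in T-type over NR was 4.56 without NR cell 4, 1 of the microglia marker cells. Pydc3, Ifi205 and Pyhin1 had 295, 202 and 22 reads in 1 to 3 cells. Of the GBP and IRG GTPases, which act against intracellular pathogens, 7 were compared, with 2 higher and 2 lower in T-type than in NR, 1 and 0 in S-type, 0 and 4 in M-type, and 1 and 2 in T-type over S-type. Gbp3, Irgm1, Gbp7 and Irgm2 had most reads. Gbp7 had a level of 803 in T-type against 234 in NR and 37 in M-type, and the log2 ratio of T-type over NR of 1.78 came to 0.49 without T-type cell 2.

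The MHC class I list joins H2-K1, H2-D1 and B2m with the nonclassical chains. Of 8 genes compared between T-type and NR, 0 were higher and 6 lower, with a median of -3.49 that ran from -5.21 to -1.36 with 1 cell left out. For S-type the counts were 3 higher and 4 lower of 10, for M-type 2 and 5 of 10, and for T-type over S-type 0 and 6 of 9. T-type medians by the mean of log2 values were -1.75 over NR and -1.08 over S-type, beside -0.97 and -1.12 over all genes. H2-T23, which presents leader peptides of other class I chains, had levels of 479 in NR, 37.5 in M-type, 31.3 in T-type and 268 in S-type, and the log2 ratio of T-type over NR was -3.94 (-4.79 to -3.14 with 1 cell left out). Mr1, which presents vitamin metabolites, had 23.1 in NR, 35.7 in M-type, 0.304 in T-type and 21.8 in S-type. Its NR cells had a median of 0.719 and a highest value of 111.7. The log2 ratio of Mr1 in T-type over NR, -6.24, came to -1.55 without NR cell 1. H2-M3, which presents formylated peptides, had 62.5 in NR, 6.32 in M-type and 7.72 in S-type and no read in T-type. Its reads came from 2 cells each of NR, M-type and S-type, and the median of each type was 0. Cd1d1, which presents lipids, had 11 in NR, 1.62 in M-type, 1.28 in T-type and 32 in S-type, where the log2 ratio of S-type over NR of 1.54 came to 0.51 without S-type cell 4. Without the microglia marker cells 4 of 6 genes were lower in T-type than in NR.

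The peptide loading genes of class I were read in all types, with 15 compared. In T-type 4 were higher and 5 lower than in NR, in S-type 5 and 1, in M-type 3 and 3, and in T-type over S-type 0 and 4. Canx, Calr, Pdia3 and Psme2 were the most read. Calr, a chaperone of the loading complex, had levels of 1535 in NR, 869 in M-type, 3981 in T-type and 3980 in S-type, and Psme2, a proteasome activator raised by interferon gamma, had 660 in NR, 1817 in M-type, 2375 in T-type and 1397 in S-type. MHC class II had 1412 reads over 7 of its 9 genes, and 2 were compared, H2-DMa and H2-DMb1, the former higher in S-type and M-type than in NR and lower in T-type. Its log2 ratio over NR of 4.38 in S-type came to 0.36 without S-type cell 2, and that of -1.94 in T-type to -0.24 without NR cell 2. Cd74, the invariant chain, had 88 reads in 1 NR cell and H2-Aa 76 reads in 2 cells.

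Of the negative regulators of the pathway, the counts against NR were 1 higher and 5 lower of 10 in T-type, 2 and 5 in S-type and 0 and 7 in M-type. Their medians were -1.09, -0.72 and -1.57, beside -0.07, 0.03 and -0.20 over all genes. By the mean of log2 values these medians were -1.40, -0.59 and -0.81, beside -0.97, 0.13 and -0.04 over all genes. The M-type median of -1.57 came to -0.81 without NR cell 3. T-type over S-type had 2 higher and 3 lower. The most read were Ptpn11, Ptpn2, Pias1 and Nlrx1. Ptpn2, the phosphatase that removes phosphate from JAK and STAT proteins, had levels of 897 in NR, 367 in M-type and 308 in T-type, and S-type was lower still. Its log2 ratio over NR was -1.54 in T-type and -1.29 in M-type, and without NR cell 3 these were -0.66 and -0.41. The plot of list shares sets these counts beside those of all genes.

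**Figure D5:**
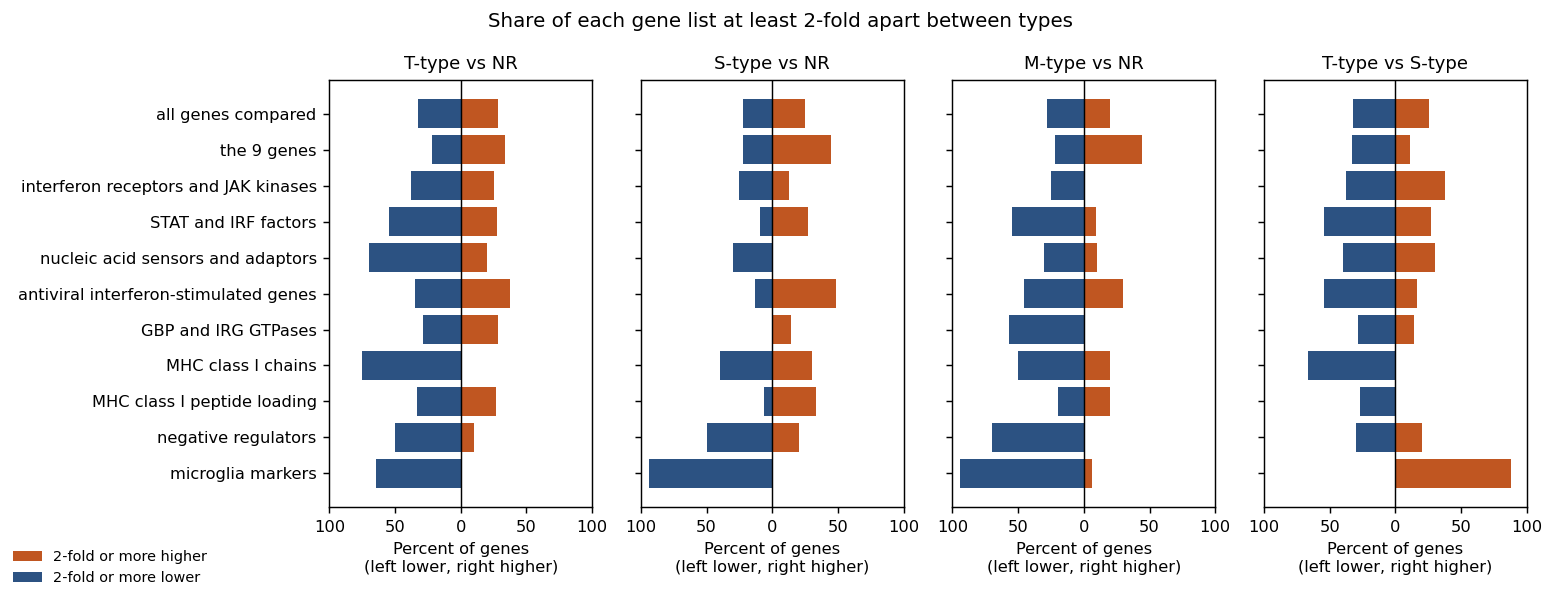
Percent of the genes of each list that were at least 2-fold higher (to the right) or lower (to the left) in the first type of each comparison, with all genes compared in the top row. The antiviral genes extend to the right in S-type over NR and to the left in T-type over S-type, and the microglia markers extend to the left in all 3 comparisons with NR.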

How the data were processed

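RNA of 22 single astrocytes was amplified by the authors in 2 rounds as antisense RNA, made into stranded libraries without molecular identifiers and sequenced as paired reads of 75 bases. The authors deposited raw counts, the exonic reads of each gene that aligned to 1 place of GRCm38 with STAR and were counted with VERSE, a modified HTSeq. Versions and the strand setting are not given in the sources used here. The response type in the table matched the labels for all 22 cells, and 0 columns were without a sample.

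Calculations ran in Python 3.11.15 (pandas 2.3.3, NumPy 2.4.6). Size factors were medians of ratios over genes that no cell lacked. The filter asked for reads in 5 or more cells. Where a type had no read, 3 reads over its cells stood in, and genes with at most 3 reads in both types were not compared. Intervals were exact Poisson intervals for reads, and for ratios the Clopper-Pearson split of reads weighted by size factor (SciPy 1.17.1). Size factors, log2 ratios and their intervals were checked beforehand on drawn counts. In these, 200 genes with a mean level of at least 10 had a known fold. The other steps were not checked in this way. The weighting was added because the plain split was too narrow in T-type in that check. RPKM used exon lengths of GENCODE vM21. Figures were drawn with matplotlib 3.10.9.

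The 9 genes and all gene lists were chosen with earlier results of these data known. The lists are interferon ligands, receptors and JAK kinases, STAT and IRF factors, sensors and adaptors, antiviral genes, the p200 family, GBP and IRG GTPases, MHC class I chains and peptide loading, MHC class II, negative regulators, and markers of microglia, endothelium, mural cells and fibroblasts, the oligodendrocyte lineage, neurons and astrocytes. Named were the 9 genes, at most 4 further genes of a list by reads, the 2 genes most like each of the 9, and at most 5 genes most like the summed level of Ifit1, Ifit3, Isg15 and Irf7. A few marker genes and the trio of Ifit1, Isg15 and Irf7 were named after their values were seen, and some items are not reported here. Alternatives were pooled CPM, mean CPM, TMM (R 4.3.3, edgeR 4.0.16), the mean of log2(normalized count + 1), a pseudocount of 1, removing the filter, raising it to a mean of 10, and omitting 1 cell at a time. After the values were seen, leaving out the cells with over 100 CPM summed over 19 microglia markers, and those with a size factor under 0.3, was added.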

Additional observations from a re-analysis of the deposited data

Results flagged for a closer look

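Within each type, the highest and the lowest cell of each of the 9 genes were compared with the rest on log2(normalized count + 1) by Dixon's gap over range. This gave 36 tests, of which 5 passed the limit. The limit passes about 1 in 20 by chance for normal values only, and many cells here had no read. A gene read in 1 cell of a type has a gap over range of 1 by construction, as Irf7 has in T-type. The 5 are therefore a description and are not set against that rate. In T-type, Ifit3 in cell 1 was at 1430 normalized counts and the next cell at 3.63. T-type cell 4 stood apart in 2 genes, with Isg15 at 301 where the next cell had 5.18, and Irf7 at 60.2 where the other 5 cells had 0. H2-K1 was at 0 in T-type cell 2, where the next lowest T-type cell had 72.6, and this was the cell with 56800 normalized counts of Ifi204. In S-type, Stat2 was at 0 in cell 2, where the next lowest cell had 90.5.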

How the results depend on the processing

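The number of genes at least 2-fold apart was 5 for T-type, 6 for S-type and 6 for M-type against NR and 4 for T-type against S-type. It moved by over 1.5 times in T-type against S-type with the mean of log2(normalized count + 1), to 8 genes, 2 higher and 6 lower, where 8.66% of all genes were higher and 52.7% lower. With 1 cell left out it ran from 4 to 7, from 5 to 7, from 2 to 7 and from 3 to 5, the value of 2 being without M-type cell 1. Among ratios past 2-fold, the direction turned for Isg15 in T-type over NR, to -0.74 with the mean of log2 values. That ratio was -3.43 without T-type cell 4 and ran to 2.65 without NR cell 4. Without the microglia marker cells 8 T-type reads of Isg15 stood against 0 NR reads, which gives a lower bound of -0.23 and no direction. It turned for Stat2 in M-type over NR, to 0.00206 without NR cell 1, from a low of -2.47 without M-type cell 3, and 2.70 without the microglia marker cells, and for Ifit1 in T-type over S-type, to 0.27 without S-type cell 4, from a low of -2.03 without T-type cell 3. The cause was not tested. Of the 33 ratios with a counting interval, 16 stayed inside it by mean CPM, 22 with TMM factors, 14 by pooled CPM and 4 with the mean of log2 values, and the other 3 are bounds. No paired analysis was possible because cell numbers only name cells and no test was run. Each type is 1 sample of 5 or 6 cells, and T-type cell 3 had the fewest reads. Without T-type cells 2 and 3, which had the lowest size factors, 5 genes were higher and 1 lower than NR, where 24.0% and 36.4% of all genes were. Ifit3 at 1.08 and Irf7 at 1.33 then passed 2-fold and H2-K1 at -0.58 did not. All T-type reads of Irf7 came from cell 4, and 1016 of the 1022 remaining T-type reads of Ifit3 from cell 1. Against S-type, 1 was higher and 3 lower, beside 21.7% and 36.3% of all genes.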
